A study of Mus musculus with 12 samples.

Results

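The genes described here are 53 named genes of mouse chromosome 17 between about 35 and 47 Mb (GRCm38) that are not H2 genes, out of 28188 gene symbols counted in the 12 libraries. They were taken from the count table by symbol. The interval was chosen with strain differences of these same libraries known, in both cell types, so the strain values below describe the choice and are support for nothing. The study compared NOD mice, a strain that develops autoimmune diabetes spontaneously, with NOD.Idd2 mice, which carry the Idd2 diabetes locus of B10 origin on the NOD background. The labels do not give the extent of the B10 segment. RNA came from isolated B cells and isolated dendritic cells of the spleens of mice aged 12 weeks, and poly(A) libraries were sequenced. Each strain gave 3 libraries of each cell type, which makes 4 groups of 3, with NOD as the control and no treatment named in any group. The labels do not say that the libraries of a group came from separate animals, so the p-values cover the spread among these samples, which may be technical.

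The Idd2 locus lies on another chromosome than these genes. The part of chromosome 17 described here begins inside the major histocompatibility complex, a dense cluster of genes of antigen presentation and inflammation that is known for its link to autoimmune diabetes. Between the H2 genes of that complex lie many genes with other tasks, such as splicing, tubulin and stress-response genes, and the genes farther along the chromosome serve ribosomes, DNA repair, protein turnover and blood vessel growth.

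The members fell into 2 blocks in order of position. The first held 18 members, from Abhd16a (chr17:35089263-35102987) to Trim39 (chr17:36258873-36272247). After a gap of 7088.2 kb without a member came the other 35, from Adgrf5 (chr17:43360451-43459557) to Tbcc (chr17:46890684-46891847). The annotation places 232 genes without H2 in this window, and 107 named ones among them are no members. All 53 members are annotated as protein-coding, and 14 share exon bases with another counted gene. In most such cases that gene lies on the opposite strand, and the use of strand in counting is not given in the sources used here, so their reads may be shared.

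Depth was 40344883 to 44632276 counts in B cells and 22769062 to 30337812 in dendritic cells, except replicate 3 of NOD.Idd2 dendritic cells with 8663421. The 53 members took 0.340 to 0.405% of all counts, and 50 to 53 of them had at least 1 count in each library. Replicates of each group differed by more than sampling noise (chi-square per gene at least 3.12). The isolated populations carried their defining transcripts. The 5 B cell markers summed to 9197 to 9551 CPM (counts scaled to the library size) in B cells and 32.4 to 71.9 in dendritic cells. The 6 dendritic cell markers summed to 3622 to 3973 CPM in dendritic cells and 9.20 to 11.1 in B cells, and none of these 11 genes was at 0 in a group. Markers of other cells differed between the populations too: the 6 monocyte markers summed to 907 to 1549 CPM in dendritic cells against 19.6 to 38.7 in B cells, and the 8 macrophage markers to 344 to 436 against 35.2 to 48.0. The 5 T cell markers summed to 350 to 437 CPM against 12.1 to 41.3, but Cd4, which splenic dendritic cells can carry themselves, made up nearly all of that sum (373 CPM in NOD dendritic cells), and it was the only 1 of the 5 with a log2 difference above 0 (median -0.42 in NOD). The X-inactivation transcript Xist was at 1560 to 2103 CPM in B cells, with 1 to 4 counts per library in dendritic cells, and the Y-linked gene Ddx3y was at 0 counts in B cells and 235 to 306 CPM in dendritic cells. Every difference between cell types below is therefore also one between sexes, and these cannot be told apart, whereas each strain comparison was made within 1 sex.

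The upstream sequences of Zfp318, Rpl7l1, Capn11 and Vegfa, all in the second block, are shown because the strain values below turn on them. Rcan2 in B cells (log2 -0.89) and Clic5 in dendritic cells (0.79) differed by more than Zfp318 or Rpl7l1, but from few counts. Neither passed between the strains in the reported fits, and neither did Zfp318 in either cell type or Rpl7l1 in B cells. RefSeq's promoter windows (GRCm38.p6) were matched for 49 of the 53 members. The stretches end at the RefSeq start or, where GENCODE exons reach further, before those exons. Capitals mark 4 motifs, each searched on both strands: the GC box with the letters GGGCGG, the element named for its letters CCAAT, the TATA box with the letters TATAAA, and the hypoxia response core with the letters ACGTG. No motif overlaps another in the stretches shown. The stretches lie at chr17:46383516-46383730 on the plus strand for Zfp318, and on the minus strand at chr17:46782673-46782906 for Rpl7l1, chr17:45659326-45659559 for Capn11 and chr17:46032378-46032627 for Vegfa.
Zfp318: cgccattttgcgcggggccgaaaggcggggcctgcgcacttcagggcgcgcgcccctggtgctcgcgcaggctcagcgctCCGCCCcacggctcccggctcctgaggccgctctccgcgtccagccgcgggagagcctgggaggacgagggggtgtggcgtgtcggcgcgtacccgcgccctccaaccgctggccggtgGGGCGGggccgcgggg
Rpl7l1: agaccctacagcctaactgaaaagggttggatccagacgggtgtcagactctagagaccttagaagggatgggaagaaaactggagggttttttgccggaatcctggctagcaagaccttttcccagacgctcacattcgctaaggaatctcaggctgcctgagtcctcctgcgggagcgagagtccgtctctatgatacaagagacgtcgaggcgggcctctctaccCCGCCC
Capn11: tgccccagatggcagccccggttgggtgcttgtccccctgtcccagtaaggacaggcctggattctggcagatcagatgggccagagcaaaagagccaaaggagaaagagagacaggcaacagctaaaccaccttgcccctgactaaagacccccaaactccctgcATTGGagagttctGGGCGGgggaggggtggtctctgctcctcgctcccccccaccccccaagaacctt
Vegfa: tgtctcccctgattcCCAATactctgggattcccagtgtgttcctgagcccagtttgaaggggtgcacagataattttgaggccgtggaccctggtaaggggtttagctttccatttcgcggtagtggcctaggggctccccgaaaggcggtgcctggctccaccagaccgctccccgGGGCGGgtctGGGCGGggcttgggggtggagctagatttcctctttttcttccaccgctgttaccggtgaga
The stretch before Zfp318 was the richest of the 4 in CpG, with 32 CpG and 78.6% GC over 215 bases, and it held 2 GC boxes. Rpl7l1 and Capn11 each had 1 GC box, Vegfa had 2, and Capn11 and Vegfa each had 1 CCAAT box. None of the 4 stretches held TATAAA or ACGTG. Over 250 bases before the start, GGGCGG occurred in 31 of 49 member promoters (63.3%) and in 32.7% of all 32851 RefSeq promoters. CCAAT occurred in 32.7% and 33.8%, TATAAA in 8.2% and 12.4%, ACGTG in 24.5% and 16.6%, and the E-box CANNTG, which is not in capitals above, in 49.0% and 66.2%. The member promoters had a median of 57.6% GC and 14 CpG, against 52.4% and 6 over all promoters. Each member entered with its most upstream start, whereas the 32851 were not limited to 1 start per gene or to protein-coding genes. The shares are therefore of unlike sets, and no trait of the members is read from them. These matches describe letters in a window and say nothing of what binds there.

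Before the strain values, the low members need naming. A filter on low counts let 50 of the 53 members through in each comparison. Ptk7, a receptor-like pseudokinase, and Adgrf5, an adhesion receptor, were dropped from all of them, with 1 to 13 and 0 to 31 counts over the 3 libraries of a group. Rcan2, a calcineurin regulator, was tested only between the strains in B cells, where it had 46 counts in NOD and 24 in NOD.Idd2, against 3 in each dendritic cell group. Ier3 was dropped from that B cell comparison, with 16 and 18 counts.

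In dendritic cells 6 of 50 tested members (12%) passed an adjusted p of 0.05 between the strains, all higher in NOD.Idd2, where 1.29% of all 14441 genes tested passed (0.665% higher and 0.623% lower). Because strain differences chose the interval, nothing is read from that count. Rpl7l1 (chr17:46773907-46782672), a protein related to ribosomal protein L7, was at 55.0, 59.3 and 65.0 CPM in the NOD libraries and at 94.9, 105 and 93.7 in the NOD.Idd2 libraries. Every NOD.Idd2 library lay above every NOD library, by a fitted 1.64-fold (log2 0.72, SE 0.06). Vegfa (chr17:46016993-46032369), the growth factor that drives blood vessel growth, was at 4.13, 4.32 and 4.58 CPM in NOD and 10.95, 9.38 and 7.03 in NOD.Idd2. Its NOD.Idd2 libraries spread more widely than its NOD libraries but did not overlap them (2.15-fold, log2 1.10, SE 0.15). Capn11 (chr17:45630204-45659325), a member of the calpain family of calcium-dependent proteases that is known for its expression in testis, had 0 counts in all 3 NOD libraries and 21, 103 and 14 in NOD.Idd2. With 138 counts against a floor of 3 over the group, it was at least 58.1-fold higher in NOD.Idd2, although at only 0.927, 3.54 and 1.56 CPM. It passed the filter on low counts through the NOD.Idd2 libraries alone, where it was high, so its call is a description. Most of the counts came from NOD.Idd2 replicate 2, without which 35 counts and a bound of 28.3-fold were left, and without 1 of the NOD libraries the bound was 38.4 to 39.3-fold.

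The other 3 differed by less. Tubb5 (chr17:35833921-35838306), a beta-tubulin and so a building block of microtubules, was at 359, 390 and 385 CPM in NOD and 454, 508 and 478 in NOD.Idd2 (log2 0.35, SE 0.05). Dhx16 (chr17:35879819-35892670), a helicase of the spliceosome, was at 83.0, 75.5 and 79.9 CPM in NOD and 102, 101 and 87.7 in NOD.Idd2 (log2 0.30, SE 0.06). Polh (chr17:46171355-46202645), the polymerase eta that copies past damaged bases, was at 17.5, 18.4 and 17.2 CPM in NOD and 22.1, 23.3 and 22.9 in NOD.Idd2 (log2 0.36, SE 0.07). None of these 3 overlapped between the strains. Dhx16 was the last member inside the threshold, with 0.0376 as its adjusted p in edgeR's quasi-likelihood test, and Gtpbp2, a GTPase that helps stalled ribosomes, the first outside it, at 0.0625 (log2 0.29, SE 0.07).

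The calls on these members depended on single libraries to different degrees. Rpl7l1, Vegfa and Capn11 passed in all 6 fits that each left out 1 dendritic cell library, Capn11 entering them through NOD.Idd2 libraries alone. Tubb5 was lost without NOD.Idd2 replicate 2 or 3, and Dhx16 and Polh passed in 1 of the 6 fits, the one without NOD replicate 1. The count was 3 without NOD.Idd2 replicate 2 and 3 without the shallow replicate 3. With all 12 libraries in 1 fit it was 4, Dhx16 and Vegfa being lost (adjusted p 0.103 and 0.0614). Of 63 marker genes tested in 13 lists only Lyz2 passed between the strains in these libraries (edgeR, log2 0.50, adjusted p 0.0383). The lists below are given by direction and sum. The monocyte list, which holds Lyz2, summed to 907 to 1264 CPM in NOD and 1341 to 1549 in NOD.Idd2, but only 3 of its 6 genes lay above 0 (median log2 0.04). All 5 plasma cell markers lay above 0 (median 0.77), with sums of 148 to 198 CPM in NOD and 188 to 263 in NOD.Idd2, and so did all 6 natural killer cell markers (median 0.42) and all 5 neutrophil markers tested (0.41). The sums of the plasma cell, natural killer cell and neutrophil lists overlapped between the strains, whereas those of the monocyte list did not. Natural killer cell sums were 139 to 170 CPM in NOD and 152 to 165 in NOD.Idd2, and neutrophil sums 5.44 to 10.3 and 7.42 to 14.8. Of the 5 B cell markers 1 lay above 0 (median -0.49). The endothelial list had 1 of 5 tested genes above 0 (-0.12). It summed to 163 to 172 CPM in NOD and 151 to 158 in NOD.Idd2, without overlap. The part of these markers in the members' values was not tested. In bulk RNA, fewer cells of a type and less RNA per cell cannot be told apart.

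**Figure D1:**
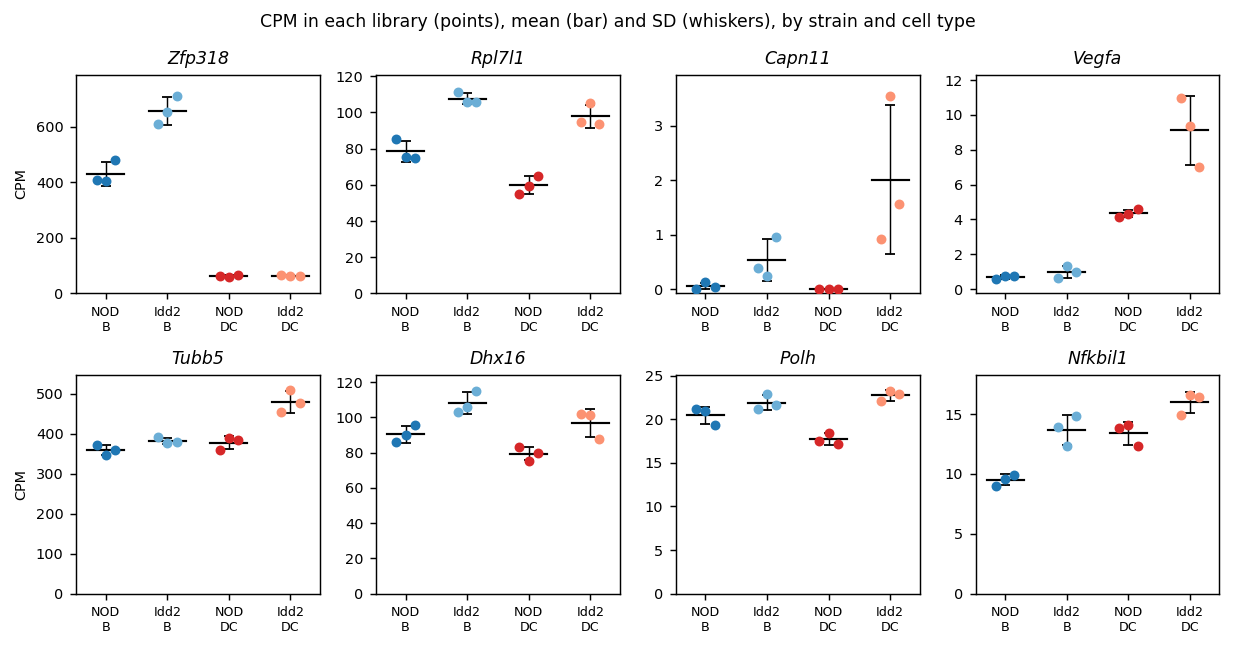
Scaled CPM of 8 members in each library (points), with the group mean (bar) and SD (whiskers, n = 3), for NOD and NOD.Idd2 B cells and dendritic cells (DC). Zfp318 was at 404 CPM or more in B cells of both strains and at most 66.1 CPM in dendritic cells, whereas the NOD.Idd2 points of Rpl7l1 lay above the NOD points in both cell types.

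In B cells none of 50 tested members passed between the strains, where 0.16% of all 15011 genes tested did (0.0733% higher and 0.0866% lower), and 13 of the 50 (26%) had an unadjusted p under 0.05, against 6.4% of all genes, from which nothing is read since strain differences chose the interval. DESeq2 called 7, and 0.813% of all genes. The fit in edgeR with the replicate number as a block called 7, 5 higher and 2 lower, and 1.04% of all genes. Zfp318 (chr17:46383731-46420920), a nuclear zinc finger protein needed for IgD on mature B cells, was at 407, 404 and 480 CPM in NOD and 611, 653 and 711 in NOD.Idd2. The lowest NOD.Idd2 library lay above the highest NOD library (1.54-fold, log2 0.62, SE 0.09), with an adjusted p of 0.0978 without the block and 3.84e-06 with it. Rpl7l1 was at 85.4, 75.1 and 74.8 CPM in NOD and 111, 106 and 106 in NOD.Idd2 (1.38-fold, log2 0.47, SE 0.06), again with no overlap, at an adjusted p of 0.0587 without and 5.87e-05 with the block. Nfkbil1 (chr17:35220175-35235792), an IκB-like protein, was at 9.01, 9.62 and 9.90 CPM in NOD and 13.9, 12.3 and 14.8 in NOD.Idd2 (log2 0.53, SE 0.09, adjusted p 0.219 without and 0.00688 with the block). It shares exon bases with Atp6v1g2 on the opposite strand, and reads of the pair cannot be told apart without strand.

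The replicate block also brought 4 further members past the threshold in B cells by edgeR's quasi-likelihood test. Dhx16 was at 86.0, 89.7 and 95.7 CPM in NOD and 103, 106 and 115 in NOD.Idd2 (log2 0.27, SE 0.06, adjusted p 0.540 without and 0.00206 with the block), and the RNA helicase gene Ddx39b differed by log2 0.18 (0.793 and 0.0248). The only members lower in NOD.Idd2 with the block were a pair of ubiquitin ligase scaffold genes with 3 other members between them. Cul9 was at 24.8, 27.9 and 28.9 CPM in NOD and 18.8, 22.1 and 21.7 in NOD.Idd2 (log2 -0.37, SE 0.09, adjusted p 0.557 and 0.00362). Cul7 was at 10.3, 10.6 and 10.5 CPM in NOD and 6.93, 6.95 and 8.81 in NOD.Idd2 (log2 -0.46, SE 0.11, adjusted p 0.575 and 0.0464). Neither overlapped between the strains. Capn11, with 0, 5 and 2 counts in NOD B cells and 16, 10 and 42 in NOD.Idd2 B cells, had a scaled ratio of 9.85 and did not overlap either. Single libraries moved that ratio, to 5.74 without NOD.Idd2 replicate 3, 6.43 without NOD replicate 1, and 23.5 without NOD replicate 2, where only 2 NOD counts remained (exact 95% interval 6.25 to 198, counting error only). It was among the 7 members called by DESeq2 and not among the 7 called with the block. In B cells too it passed the filter on low counts through the NOD.Idd2 libraries alone.

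In B cells no marker gene passed between the strains, and the markers of other cells, at low levels, are given by direction. None of the 6 neutrophil markers tested lay above 0 (median log2 -1.18), with sums of 7.57 to 29.3 CPM in NOD and 7.12 to 11.2 in NOD.Idd2, which overlap. The same held for 6 natural killer cell markers (-0.49), 4 erythroid markers (-0.60) and 5 monocyte markers (-0.44), the monocyte sums being 26.4 to 38.7 and 19.6 to 25.8 CPM. The macrophage sum was higher in NOD.Idd2 (41.6 to 48.0 against 35.2 to 40.0 CPM), while 3 of 7 genes lay above 0 (median -0.11). By edgeR's quasi-likelihood test 0 of 58 marker genes passed. An unadjusted p under 0.05 was found for 9 of the 58, a larger share than the 6.4% of all genes tested. The part of these markers in the members' values was not tested. Without both replicate 3 B cell libraries, which stood apart from replicates 1 and 2, 2 members passed, Zfp318 and Rpl7l1. With all 12 libraries in 1 fit 3 did, these and Nfkbil1. Leaving out each B cell library in turn gave 0 or 1 members, Rpl7l1 alone passing without NOD replicate 1.

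The strain values followed no common direction along the chromosome. The log2 difference lay above 0 for 31 of 50 members in B cells and 30 of 50 in dendritic cells, with medians of 0.05 and 0.04, against medians near 0 (6.6e-03 and 6.0e-04) over all genes tested. Most members hardly differed: 39 of 50 in B cells and 41 of 50 in dendritic cells lay within 0.25 of 0. The 3 libraries of the strains did not overlap for 18 of 50 members (36%) in B cells, 12 higher and 6 lower in NOD.Idd2, and for 15 (30%) in dendritic cells, 9 higher and 6 lower. Over all genes tested this held for 13% and 14.5%, and nothing is read from the contrast since the interval was chosen on it. Of the other 179 annotated genes of the window, 78 were tested in B cells, 1 passing as higher and 1 as lower, and 74 in dendritic cells, 1 as higher and 5 as lower.

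The members listed next to the 6 called in dendritic cells lay up to 318.5 kb from them, in some cases with genes that are no members between. Of all 50 members tested there, 41 had a log2 difference within 0.25 of 0. Nothing is therefore read from small differences next to a called member. Of these 12 adjacent members none passed by edgeR's quasi-likelihood test, and 11 had a log2 difference within 0.25 of 0, from -0.22 for Flot1 to 0.09 for Tmem63b. The exception was Gtpbp2 at 0.29, 2.0 kb from Polh at 0.36, whereas Xpo5, the exporter of microRNA precursors, which starts 0.1 kb from Polh on the opposite strand, was at 0.07. Flot1, a membrane raft protein gene 1.1 kb from Tubb5, had its NOD libraries at 65.8, 61.5 and 59.4 CPM, all above the NOD.Idd2 libraries at 55.7, 55.0 and 48.6. Tmem63b, a membrane channel gene, has its annotated end 0.8 kb from the start of Capn11 on the same strand.

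**Figure D2:**
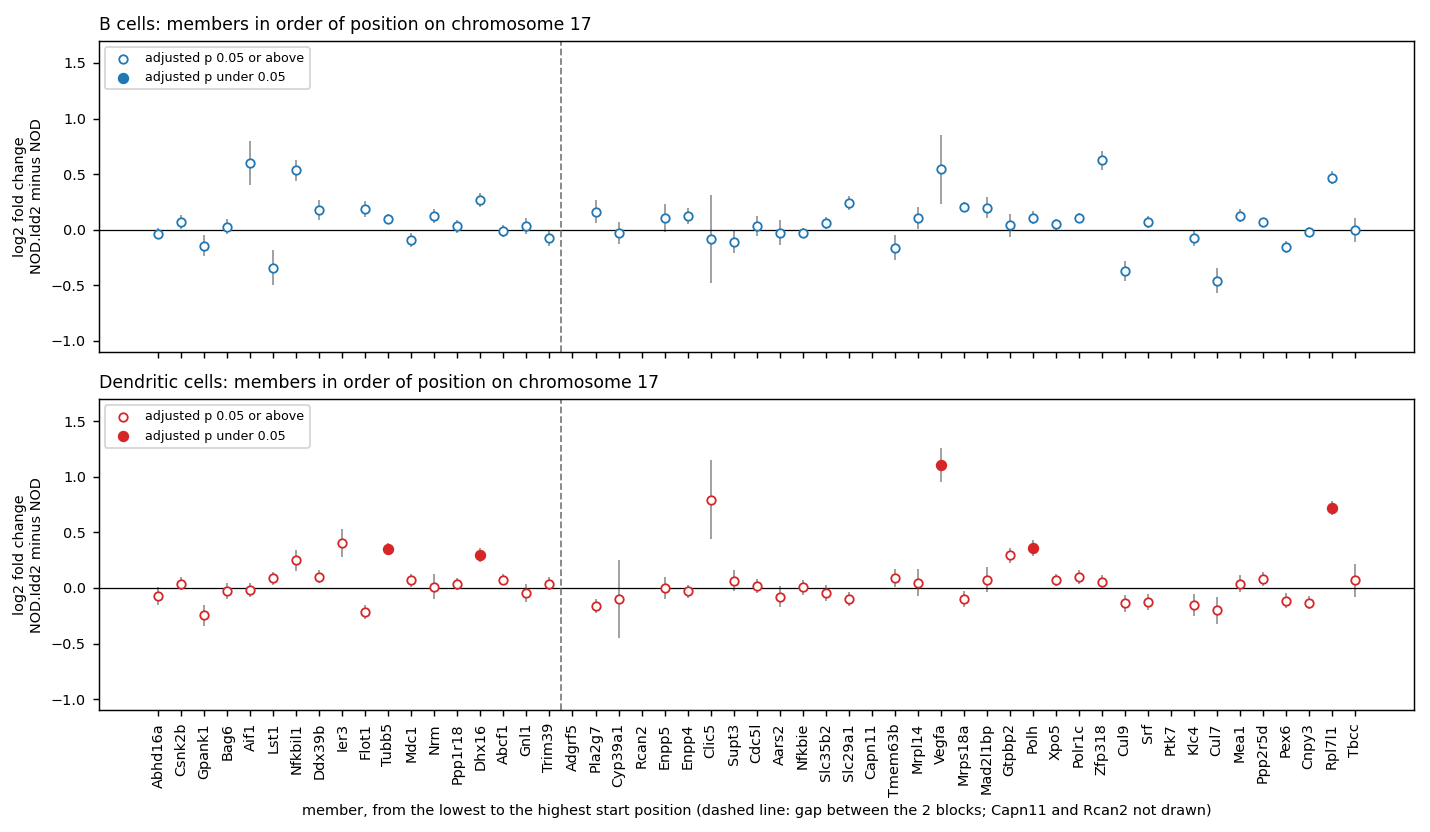
Log2 fold change of NOD.Idd2 over NOD (points) with its SE (whiskers) for the members in order of position, in B cells (top) and dendritic cells (bottom), where filled points passed an adjusted p of 0.05 and the dashed line marks the gap between the blocks. Among the 5 filled points drawn, Tubb5, Dhx16, Vegfa, Polh and Rpl7l1, Polh (0.36) stands beside Gtpbp2 at 0.29 and Tubb5 (0.35) beside Flot1 at -0.22. Capn11 and Rcan2, at few counts, are not drawn, and Adgrf5, Ptk7 and, in B cells, Ier3 were not tested.

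Whether the strain difference itself changed between cell types was fitted in all 12 libraries, as the dendritic cell difference minus the B cell difference. None of 50 members passed by edgeR's quasi-likelihood test, where 0.109% of all genes did (0.0603% higher and 0.0482% lower), and 13 (26%) had an unadjusted p under 0.05, against 8.22% of all genes, again with nothing read from it. Zfp318 came closest: its strain difference was log2 0.62 in B cells and 0.06 in dendritic cells, where it was at 60.9, 58.6 and 65.5 CPM in NOD and 66.1, 63.8 and 61.7 in NOD.Idd2. The strains overlapped in dendritic cells and not in B cells, and the fitted difference was -0.58 (SE 0.11, adjusted p 0.102). It passed with the replicate block (adjusted p 0.00349) and without NOD B cell replicate 3 (0.0189). DESeq2 called 3 members, Zfp318, Flot1 and Tubb5, and 0.687% of all genes. Flot1 and Mrps18a, a mitochondrial ribosomal protein gene, were higher in every NOD.Idd2 B cell library and lower in every NOD.Idd2 dendritic cell library. For Mrps18a the values were 23.1, 23.0 and 23.8 CPM against 26.8, 27.0 and 26.1 in B cells. In dendritic cells they were 23.7, 21.64 and 23.0 against 21.46, 21.55 and 20.5, so the closest libraries of the strains were nearly equal. The difference between its strain effects did not pass (adjusted p 0.213), nor did that of Flot1 (0.174).

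The difference between cell types was not used to choose the members and was tested on its own. It asks which of these genes a dendritic cell carries at another level than a B cell. In NOD 39 of 50 members (78%) passed, 21 higher and 18 lower in dendritic cells, against 76.4% of all 16588 genes (37.7% higher and 38.7% lower), so the members' share was near that of all genes. In NOD.Idd2 37 (74%) passed, 21 higher and 16 lower, against 75.7% (36.7% higher and 38.9% lower). The libraries of the cell types did not overlap for 39 members in NOD and 40 in NOD.Idd2, against 77.6 and 77.3% of all genes. The 2 comparisons used different libraries but 1 estimate of the spread. In total 34 members passed in both strains, each in the same direction, 19 higher and 15 lower. The share of all genes passing in both strains was not counted, so nothing is read from the 34. The median size of the log2 difference in NOD was 0.64 over the members and 0.77 over all genes tested. Of the 39 calls in NOD 35 held in all 18 alternatives tried. Clic5, Dhx16, Gtpbp2 and Polh were each lost in at least 1.

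Among members higher in dendritic cells, the largest differences belonged to genes of myeloid cells and of the stress response and to Pla2g7. Ier3, an early response gene that protects cells from death signals, was at 0.112, 0.170 and 0.0932 CPM in NOD B cells and 14.8, 14.1 and 13.0 in NOD dendritic cells (log2 6.78, SE 0.25). It was near the floor of detection in B cells, with 16 counts over the 3 NOD libraries. Aif1, which encodes the actin-bundling protein Iba1 of macrophages and microglia, was at 0.805, 0.755 and 0.769 CPM in NOD B cells and 52.0, 53.7 and 55.8 in NOD dendritic cells (log2 6.12, SE 0.11). Lst1, a leukocyte membrane protein encoded between Aif1 and Nfkbil1, was at 2.17, 2.29 and 1.72 CPM against 52.2, 55.7 and 50.6 (log2 4.69, SE 0.09). All 3 genes of this group thus rose many-fold, with no overlap, and did so in NOD.Idd2 as well (log2 6.96, 5.49 and 5.10). Pla2g7, which inactivates platelet-activating factor and oxidised phospholipids, was at 11.7, 13.4 and 10.3 CPM in NOD B cells and 196, 232 and 193 in NOD dendritic cells (log2 4.14, SE 0.10). An antisense gene shares 319 of its exon bases. Macrophages and monocytes are also known to express these genes, and their markers were higher in the dendritic cell libraries, as given above. Of the macrophage list 7 of 8 and of the monocyte list 5 of 6 passed as higher in NOD dendritic cells. Their part in these differences was not tested.

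A pair of members stood out in the other direction. Cyp39a1, an oxysterol hydroxylase of bile acid synthesis, was at 33.8, 33.5 and 27.1 CPM in NOD B cells and 0.891, 0.733 and 0.50 in NOD dendritic cells (log2 -5.46, SE 0.17), which makes it 44.0-fold higher in B cells. Zfp318 was 6.92-fold higher in NOD B cells than in NOD dendritic cells (log2 -2.79, SE 0.08), and in NOD.Idd2 its log2 difference was -3.37 (SE 0.08). For both genes every B cell library lay above every dendritic cell library. Together with Mad2l1bp, which silences the spindle checkpoint (log2 -1.01, SE 0.10), these were the 3 members that passed and were at least 2-fold lower in NOD dendritic cells, against 12 at least 2-fold higher. The shares of all genes at least 2-fold apart were not counted, so nothing is read from these counts. Capn11, with 7 counts in NOD B cells and 0 in NOD dendritic cells, did not pass (adjusted p 0.174).

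**Figure D3:**
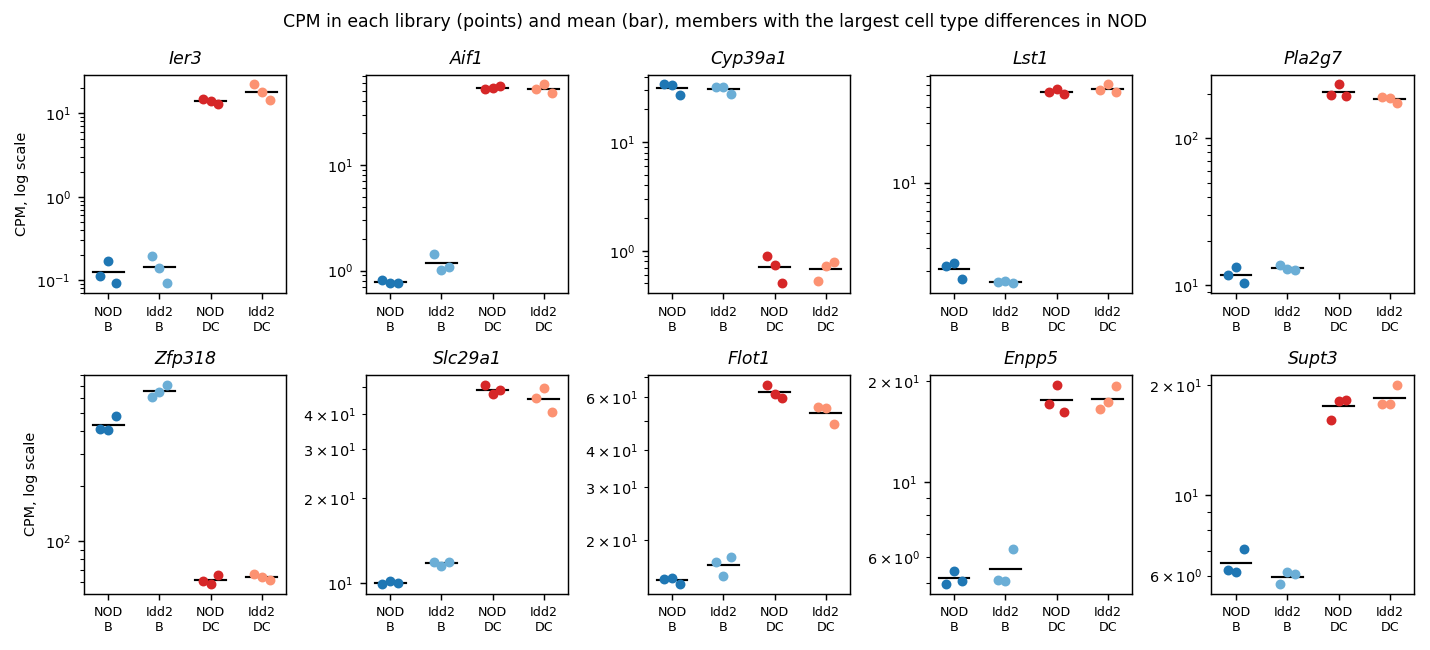
Scaled CPM on a log axis in each library (points) with the group mean (bar), for the 10 members with the largest difference between NOD dendritic cells (DC) and NOD B cells of those whose higher group reached 5 CPM. Cyp39a1 and Zfp318 were higher in every B cell library and the other 8 in every dendritic cell library.

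Transporters, ectoenzymes and the growth factor gene Vegfa were higher in dendritic cells, while the receptor genes Adgrf5 and Ptk7 were too low to test. All 3 transporters and channels passed in NOD. Slc29a1, the nucleoside transporter ENT1, was at 9.95, 10.2 and 10.04 CPM in NOD B cells and 50.8, 46.91 and 48.8 in NOD dendritic cells (log2 2.29, SE 0.06). Tmem63b (log2 1.05, SE 0.11) and Slc35b2, which brings the sulfate donor into the Golgi (log2 0.23, SE 0.07), were the others, and Slc35b2 did not pass in NOD.Idd2 (adjusted p 0.137). Of the 5 receptors, growth factors and ectoenzymes 3 were tested and all 3 passed. Vegfa was at 0.559, 0.731 and 0.746 CPM in NOD B cells and 4.13, 4.32 and 4.58 in NOD dendritic cells (log2 2.69, SE 0.25). The ectoenzyme gene Enpp5 was at 4.99, 5.46 and 5.08 CPM and 17.1, 19.5 and 16.2 (log2 1.78, SE 0.11), and its neighbour Enpp4, 9.7 kb away, differed less (0.40, SE 0.06).

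Genes of transcription and of signalling to the nucleus went both ways. Of 7 tested, 5 were higher and 2 lower in NOD dendritic cells. Supt3, a subunit of the SAGA coactivator, was at 6.22, 6.16 and 7.11 CPM in NOD B cells and 16.1, 18.2 and 18.2 in NOD dendritic cells (log2 1.44, SE 0.09). The inhibitor gene Nfkbie, whose product IκBε holds NF-κB in the cytoplasm, rose from 140 ± 3.36 to 234 ± 24.2 CPM (SD, n = 3, log2 0.76, SE 0.06). Ppp2r5d, a regulatory subunit of phosphatase PP2A (0.71, SE 0.05), Nfkbil1 (0.51, SE 0.09) and Csnk2b, the regulatory subunit of casein kinase CK2 (0.22, SE 0.06), were also higher. Srf, the serum response factor of actin and early response genes, was lower with Zfp318, from 82.5 ± 3.00 CPM in B cells to 55.2 ± 4.94 (SD, n = 3, log2 -0.57, SE 0.07).

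The DNA repair and mitosis genes Mad2l1bp, Polh and Mdc1 were lower in dendritic cells, and most genes of RNA and protein synthesis that passed were lower too. Mdc1, a mediator of the DNA damage response, was at 201 ± 13.1 CPM in NOD B cells against 131 ± 9.54 (SD, n = 3, log2 -0.61), and Polh differed by -0.19. Gpank1 (-0.78) and the inner nuclear membrane gene Nrm (-0.72), listed with these 3 although neither is an established repair gene, passed as lower in NOD as well. In NOD.Idd2 4 of these 5 passed, Polh not (adjusted p 0.538). Of 12 genes of RNA and protein synthesis 6 were lower and 1 higher in NOD. The lower ones ran from the nucleolar GTPase gene Gnl1 (-0.70) over Gtpbp2 (-0.43), Rpl7l1 (-0.38), Polr1c, a subunit shared by RNA polymerases I and III (-0.37), and the translation factor gene Abcf1 (-0.21) to Dhx16 (-0.17). The higher one was Mrpl14, a mitochondrial ribosomal protein gene (0.96, SE 0.12), which shares 11.2% of its exon bases with Tmem63b on the opposite strand. The spliceosome gene Cdc5l (0.03), the helicase gene Ddx39b (-0.07), Xpo5 (0.05), the mitochondrial alanyl-tRNA synthetase gene Aars2 (0.20) and Mrps18a (-0.02) did not pass in NOD.

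The remaining groups were split. Of 6 genes of ubiquitin, folding and proteolysis 3 were higher in NOD dendritic cells: Cul7 (log2 1.01, SE 0.12), Cul9 (0.80, SE 0.08) and Cnpy3, a chaperone of Toll-like receptors (0.92, SE 0.05, 95.1 ± 3.99 against 178 ± 9.88 CPM, SD, n = 3). The ubiquitin ligase gene Trim39 was lower (-0.63, SE 0.07) and the chaperone gene Bag6 did not pass (0.08). Of 6 cytoskeleton and membrane genes, Flot1 was at 14.8, 14.95 and 14.3 CPM in NOD B cells and 65.8, 61.5 and 59.4 in NOD dendritic cells (log2 2.09, SE 0.07). Clic5, at 0.286 ± 0.0584 and 0.665 ± 0.211 CPM (SD, n = 3), was higher from few counts (1.22, SE 0.39). The tubulin-folding gene Tbcc (-0.66), the kinesin light chain gene Klc4 (-0.58) and the phosphatase-targeting gene Ppp1r18 (-0.24) were lower, and Tubb5 did not pass in NOD (0.08). Among 4 lipid and peroxisome genes, Pla2g7 and Cyp39a1 passed in opposite directions, while the lipase gene Abhd16a (-0.11) and the peroxisome import gene Pex6 (-0.08) did not pass. The spermatogenesis-associated gene Mea1 did not pass either (-0.04).

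For 8 members the cell type difference passed in 1 strain alone. The share of all genes for which this held was not counted. Rpl7l1, Polh, Nfkbil1, Gtpbp2 and Slc35b2 passed in NOD alone. For Rpl7l1 the log2 difference between cell types was -0.38 (SE 0.07) in NOD and -0.15 (SE 0.07, adjusted p 0.0601) in NOD.Idd2. Tubb5, Capn11 and Mrps18a passed in NOD.Idd2 alone, Tubb5 with log2 0.08 in NOD (adjusted p 0.119) and 0.32 in NOD.Idd2. The test of each such change is the difference of strain effects given above, which no member passed.

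**Figure D4:**
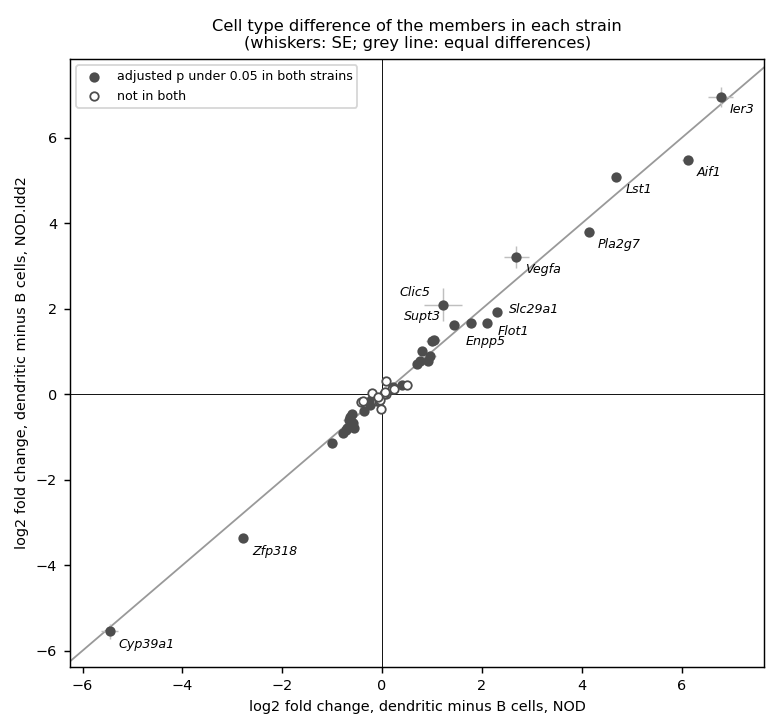
Log2 fold change of dendritic cells over B cells in NOD (x axis) and NOD.Idd2 (y axis) for 49 members, with SE as whiskers and the line of equal differences in grey. Points run from Cyp39a1 (-5.46 and -5.55) to Ier3 (6.78 and 6.96), and the 34 filled points passed in both strains. Capn11, with 0 counts in NOD dendritic cells, is not drawn.

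Per kb of exon, the member with the highest level in B cells was Tubb5, at 108 CPM per kb in NOD and 115 in NOD.Idd2, followed by Ddx39b at 91.6 and 103. In NOD dendritic cells the short gene Lst1 came first at 127, before Tubb5 at 114, and in NOD.Idd2 dendritic cells Tubb5 came first at 144, before Lst1 at 134. At the other end, Adgrf5, Ptk7, Clic5 and Rcan2 were at most 0.138 CPM per kb in all 4 groups.

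The families of several members were followed through lists of other genes, again between the cell types in NOD. Of all genes tested 76.4% passed there, 37.7% higher and 38.7% lower in dendritic cells. No list was tested against these shares. Of 14 NF-κB and IκB family genes, Nfkbie among them, 9 were higher and 2 lower in dendritic cells, with a median log2 of 0.36. The subunit genes Relb (2.72, SE 0.07) and Nfkb1 (1.04, SE 0.05) and the nuclear IκB gene Nfkbiz (1.63, SE 0.08) were among the higher ones. Of 14 target genes of Srf, 10 were higher and 1 lower (median 0.62), while Srf itself was lower. Zyx, a protein of focal adhesions, was among the higher (2.15, SE 0.09). Of 19 subunit genes of RNA polymerases I and III, Polr1c among them, 2 were higher and 10 lower (median -0.34). Of 15 peroxins 8 were higher and 3 lower, and of 11 cullins and partners 3 and 4. Of 16 listed calpain genes 12 were tested, 4 being higher and 6 lower. Between the strains, without the block, Capn11 in dendritic cells was the only gene of these 6 lists to pass edgeR's quasi-likelihood test. In B cells 0 of 84 passed, and 2, Cul9 and Cul7, did with the block. An unadjusted p under 0.05 was found for 5 of 84 in B cells (5.95%, against 6.4% of all genes tested) and 10 of 83 in dendritic cells (12%, against 11.3%), which is near the share of all genes.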

How the data were processed

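Gene-level counts of 12 poly(A) libraries were used as deposited by the authors, as whole-number counts per gene symbol. STAR, its version written as 0.12.2, and the build GRCm38 are named per the submitters' processing notes, while the counting tool, annotation, strand setting and filters were not given in the sources used here. For all libraries the notes name this 1 build, and whether reads of B10 and NOD alleles aligned equally well was not tested. The deposited normalized counts, each library's counts divided by 1 factor, were not used. Groups and replicate numbers came from the titles. Positions are from GENCODE M21.

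edgeR 4.0.16 under R 4.3.3 (TMM scaling, filterByExpr with at least 10 counts and a total of at least 15, glmQLFit and glmQLFTest) was fitted to all genes, with Benjamini-Hochberg adjustment over all tested and a threshold of 0.05. Strain comparisons used the 6 libraries of a cell type. Cell type differences and the difference of strain effects used all 12. SE is the size of the log2 change over the square root of F. The fits were checked on simulated counts. Intervals are not given, apart from the exact interval for Capn11 in B cells. The floor of 3 counts covers counting error only. PCR copies are not independent molecules.

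The members and gene lists were chosen with earlier results of these data known. Values in every library are given for members called between the strains and for the 10 largest cell type differences among called members with at least 5 CPM. Up to 4 called genes per pathway list are named. Per-library values of Zfp318, Nfkbil1, Cul7, Cul9, Mrps18a and Flot1 between strains, the left-out values of Capn11, and the neighbours and markers named, were chosen after their values were seen.

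The labels give each group replicate numbers 1 to 3 and state no pairing. Among B cell libraries, deviations from the group mean correlated between equal numbers at 0.617, 0.407 and 0.815, so the block is given beside results it changes, although NOD replicate 1 also correlated with NOD.Idd2 replicate 2 (0.427) and NOD replicate 2 with NOD.Idd2 replicate 1 (0.466). In dendritic cells they correlated at -3.6e-03, 0.0150 and 0.0546, which does not pair them. Alternatives were RLE size factors, no filter, DESeq2 1.42.0, the block, each library left out and other sets of libraries. A fit without the replicate 3 pair of B cell libraries and a block across cell types were added after seeing the data.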

Additional observations from a re-analysis of the deposited data

How the results depend on the processing

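The number of members called between the strains in B cells depended on the fit: 0 as reported, 2 with no filter on low counts, 7 with DESeq2, 7 with the replicate block, 3 with all 12 libraries in 1 fit, 2 without both replicate 3 libraries (chosen after seeing the data), and 0 to 1 with each library left out. In dendritic cells it was 6 as reported, 8 with no filter and 7 with DESeq2. It was 4 there with all 12 libraries in 1 fit, and 3 to 6 with each library left out. For the difference of strain effects it was 0, against 1 with no filter, 3 with DESeq2, 1 with the replicate block, and 0 to 1 with each library left out. The replicate block left the dendritic cell count at 5, Polh being lost (adjusted p 0.0545 in edgeR's quasi-likelihood test). In the comparison of cell types the block gave 39 members in NOD, where 71.9% of all genes passed. In NOD.Idd2 it gave 40, where 71.3% of all genes passed. Over all genes, 24 calls in B cells became 122 with DESeq2, 156 with the block, 42 in the fit of 12 libraries, 46 without both replicate 3 libraries and 13 to 18 with each library left out. The 186 calls in dendritic cells became 296 with DESeq2, 700 with no filter, 94 in the fit of 12 libraries and 63 to 332 with each library left out, and the 18 of the difference became 33 with no filter, 114 with DESeq2, 56 with the block and 7 to 19 with each library left out. The causes were not tested. The cell type counts stayed within 36 to 41 members in every alternative, and no member called in the reported fit reversed its direction. Depth limited Adgrf5, Ptk7, Rcan2, Clic5 and Capn11, and the shallow library bears on every dendritic cell value.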

Other observations

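Transcripts of the heavy chains whose balance depends on Zfp318 in mature B cells were looked at after the Zfp318 values were seen. Ighd, the constant region gene of IgD, was at 1947 to 2236 CPM in NOD B cells and 2663 to 3510 in NOD.Idd2 B cells, with no overlap (log2 0.55, SE 0.11). By edgeR's quasi-likelihood test its adjusted p was 0.364, and with the replicate block 0.000472. Ighm, the constant region gene of IgM, was at 6259 to 7687 CPM in NOD and 5643 to 6383 in NOD.Idd2, which overlap (log2 -0.20, adjusted p 0.780, and 0.0777 with the block).

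For 16 of 49 members tested in both cell types the strains did not overlap in 1 cell type and overlapped in the other. Over all genes tested the strains did not overlap for 13% in B cells and 14.5% in dendritic cells. The share of all genes apart in 1 cell type alone was not counted. Nothing is read from the 16, since strain differences chose the interval. After Zfp318, the 3 of these with the lowest unadjusted p for the difference of strain effects were Slc29a1, Aif1 and Lst1, and none of the 3 passed by edgeR's quasi-likelihood test (adjusted p 0.213, 0.240 and 0.396). All 3 were apart in B cells. Slc29a1 was at 9.95, 10.2 and 10.04 CPM in NOD B cells and 11.9, 11.5 and 11.9 in NOD.Idd2 B cells, and in dendritic cells its log2 difference was -0.10. Aif1 was at 0.805, 0.755 and 0.769 CPM in NOD B cells and 1.42, 1.01 and 1.08 in NOD.Idd2 B cells, and differed by -0.02 in dendritic cells. Lst1 was lower in NOD.Idd2 B cells, at 1.62, 1.65 and 1.58 CPM against 2.17, 2.29 and 1.72, and differed by 0.09 in dendritic cells.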
